A study of Mus musculus with 12 samples.

Results

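Day-14 mouse oocytes carried Pnpla3 RNA at 103 ± 2.79 FPKM (SD, n = 3) in their cytoplasm, and Mtr4-null cytoplasm held 1.54 ± 0.279 FPKM (SD, n = 3). Pnpla3 is described here together with 7 other genes of the lipid droplet: Pnpla2, Plin2, Plin3, Dgat1, Dgat2, Lipe and Abhd5. All 8 symbols stood in the deposited table, among 23235 gene entries, and all 8 passed the filter on low values (at least 1 FPKM in at least 3 of 12 libraries), as did 13157 entries in all. Pnpla3 was chosen by its low FPKM in Mtr4-null cytoplasm relative to WT cytoplasm, so its cytoplasmic values are given as a description without a test. The other 7 were joined to it by function.

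MTR4, whose gene stands in the table as Skiv2l2, is the RNA helicase that hands RNA to the nuclear exosome, which trims and degrades RNA in the nucleus. The libraries fall into 4 groups of 3: cytoplasm of Mtr4-null oocytes, cytoplasm of WT oocytes, nuclei of Mtr4-null oocytes and nuclei of WT oocytes. All came from mice at day 14, with 10 nuclei or cytoplasms per sample, parted by micromanipulation, and total RNA was sequenced after removal of ribosomal RNA. The labels give no strain, no means by which Mtr4 was removed and no count of mice behind a group, so each p-value rests on a spread among libraries that may be technical. The design text speaks of duplicates, whereas 3 libraries are labelled per group.

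A lipid droplet is a store of triglycerides and sterol esters under a single layer of phospholipid, coated by proteins of the perilipin family. Diacylglycerol acyltransferases make the triglyceride, and lipases with their cofactors release fatty acids from it, which mitochondria can oxidise. Oocytes hold such droplets as they grow. PNPLA3 sits on the droplet surface and belongs to the patatin-like family with PNPLA2, and in liver its RNA is known to follow feeding and the sterol regulatory factor SREBP.

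The mean levels of the patatin-like members Pnpla3 and Pnpla2 lay on opposite sides of WT in Mtr4-null cytoplasm, and the sequences just before their starts are shown for that reason. The difference of Pnpla2 did not pass the limma test (adjusted p = 0.72), and whether oocytes use these starts was not tested. Each is the 250 bases before the RefSeq start in GRCm38.p6, on the plus strand, at chr15:84167566-84167815 for Pnpla3 and at chr7:141454938-141455187 for Pnpla2. Capitals mark matches to the motifs searched on both strands, which were the cAMP response element TGACGTCA, the CCAAT box, the E-box CACGTG, the GC box GGGCGG and the sterol element TCACNCCAC.
Pnpla3: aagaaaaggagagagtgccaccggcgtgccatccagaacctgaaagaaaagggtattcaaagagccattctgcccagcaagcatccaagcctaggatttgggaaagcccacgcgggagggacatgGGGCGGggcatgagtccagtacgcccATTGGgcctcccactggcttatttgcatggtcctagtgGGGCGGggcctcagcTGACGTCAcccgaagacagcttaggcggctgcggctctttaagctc
Pnpla2: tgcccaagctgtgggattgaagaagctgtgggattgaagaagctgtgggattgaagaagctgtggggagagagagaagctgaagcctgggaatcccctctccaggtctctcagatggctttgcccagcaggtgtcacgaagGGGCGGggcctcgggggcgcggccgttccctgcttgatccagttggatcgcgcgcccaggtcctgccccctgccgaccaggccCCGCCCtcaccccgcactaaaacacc
The Pnpla3 window held 1 TGACGTCA, 46 bases before the start, a motif found in 1.55% of 32851 windows of this length. It also held 1 CCAAT box on the minus strand, 99 bases before the start (33.8% of windows), and 2 GC boxes at 125 and 61 bases (32.7% of windows). The Pnpla2 window held 2 GC boxes, at 109 and 26 bases. The E-box (6.02% of windows) and the sterol element (1.05%) were in neither window, which says only that these letters are absent there. The build differs from the mm9 of the deposited values, and a match is a description of letters.

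The targeted gene was read first as a check of the labels. Skiv2l2 stood at 1.04, 0.315 and 0.7 FPKM in Mtr4-null cytoplasms, against 21.1, 19.4 and 20.2 FPKM in WT cytoplasms. In nuclei it stood at 7.98, 0.182 and 1.12 FPKM in the libraries labelled Mtr4-null, against 6.06, 2.45 and 5.37 FPKM in WT. The library labelled Mtr4-null nucleus replicate 1 thus had more Skiv2l2 than any WT nucleus, against its label, and the nuclear values that the text turns on are also given without it. Depth is unknown in absolute terms, and depth relative to WT cytoplasm replicate 1, estimated from low values, was 0.129 to 0.372 in nuclei and 0.537 to 1.62 in cytoplasms. The small RNA Scarna2 took 58% to 81.7% of the summed FPKM of each nucleus. FPKM is scaled by the library's mapped fragments, and a share of summed FPKM is not a share of fragments. How far Scarna2 shifts the nuclear values of other genes was not tested.

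Oocyte markers summed to 10931 to 16817 FPKM in Mtr4-null cytoplasms, against 11268 to 11887 FPKM in WT cytoplasms, and none of the 12 markers was listed at 0 throughout a group. In nuclei they summed to 6094, 3177 and 12009 FPKM in the libraries labelled Mtr4-null, against 5892, 3635 and 7300 FPKM in WT. Replicate 3 of the nuclei labelled Mtr4-null thus lay within the range of the Mtr4-null cytoplasms. Among nuclei it also had the lowest Scarna2 share (58%), the greatest relative depth (0.372) and the most Pnpla2 (12.6 FPKM) and Lipe (4.23 FPKM). The reason was not tested. Of 6 adipocyte markers, 5 lay below 1 FPKM in every library of both cytoplasm groups, and the adipokine genes Retn and Lep were listed at 0 there. The summed level of 15 granulosa markers was 20.8 to 27.2 FPKM in Mtr4-null cytoplasms and 34.3 to 41.2 FPKM in WT cytoplasms, without overlap, and 11 of the 15 were below 1 FPKM in every library of both groups. Most of that sum was Nr5a2, at 18.6 FPKM in Mtr4-null cytoplasm and 28.5 FPKM in WT cytoplasm. In nuclei, 7 nuclear RNA markers summed to 360, 136 and 181 FPKM in the libraries labelled Mtr4-null, against 691, 403 and 813 FPKM in WT, without overlap. In the fit of all libraries 3 of the 6 tested were called lower (1.75% of all genes), and with the nuclei fitted alone 0 were called. Theca and stroma markers summed to 1.06 to 4.08 FPKM in the nuclei labelled Mtr4-null and to 3.96 to 37 FPKM in WT nuclei, highest in WT nucleus replicate 2. The part of these markers in the results that follow was not tested. In such samples fewer cells of a type and less RNA per cell cannot be told apart.

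**Figure D1:**
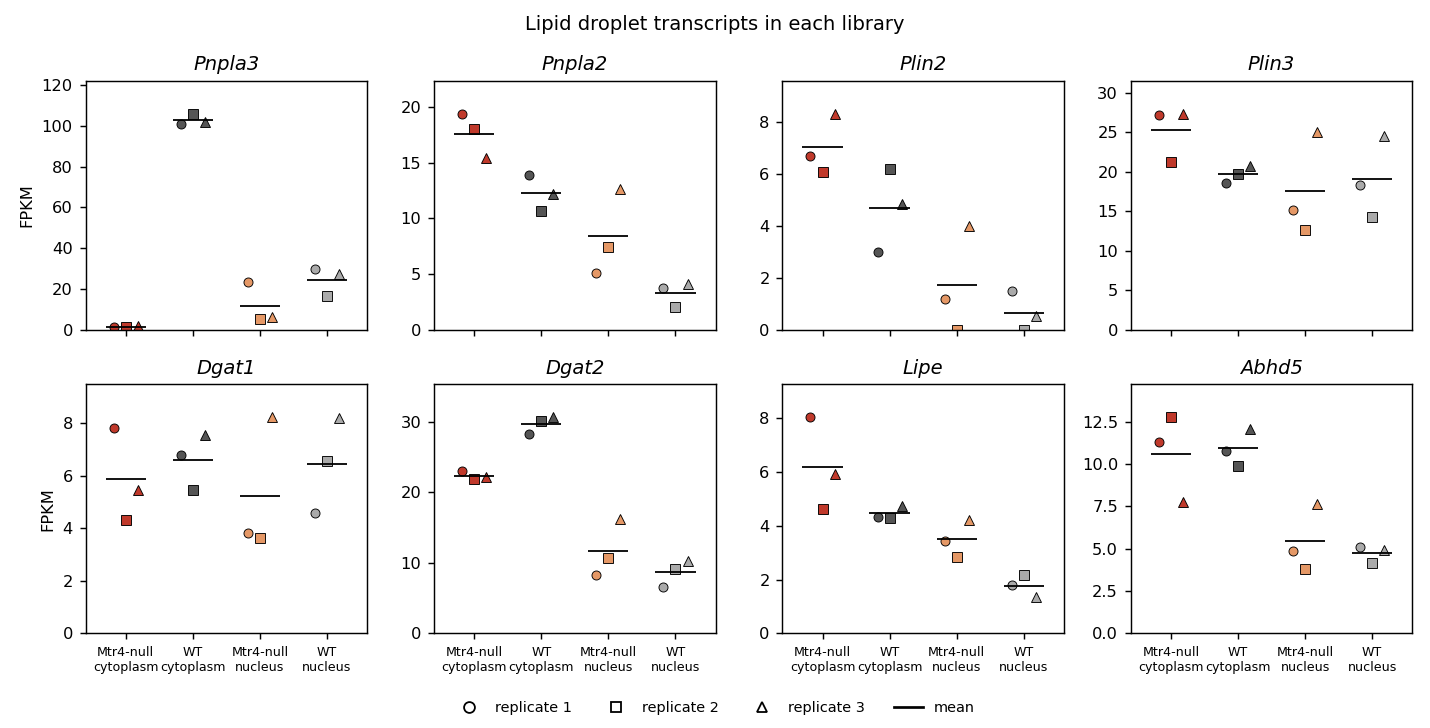
FPKM of the 8 lipid droplet genes in each of 12 libraries, with a panel per gene and a linear axis from 0. Points are libraries by group (Mtr4-null cytoplasm, WT cytoplasm, Mtr4-null nucleus, WT nucleus, left to right), and lines are group means. Pnpla3 lies between 1.22 and 1.73 FPKM in Mtr4-null cytoplasms and between 101 and 106 FPKM in WT cytoplasms, while the groups of the other genes lie much closer together.

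Pnpla3 had 1.22, 1.67 and 1.73 FPKM in Mtr4-null cytoplasms, against 101, 106 and 102 FPKM in WT cytoplasms. Every Mtr4-null value lay far below every WT value, and the spread within each group was small. The ratio of means was 0.0149, a 67-fold lower level, and the log2 fold change on the log2(FPKM + 1) scale, which understates changes of low values, was -5.36 ± 0.44 (SE). No other of the 13157 entries had a lower log2 fold change in cytoplasm. This is the measure by which the gene was chosen.

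The nuclei are separate libraries that the choice did not use. The fit of all 12 libraries, however, takes its spread in part from the cytoplasms whose values chose Pnpla3. Pnpla3 had 23.3, 5.33 and 6.12 FPKM in the nuclei labelled Mtr4-null, against 30.1, 16.8 and 27.2 FPKM in WT nuclei. Replicates 2 and 3 lay below every WT nucleus, whereas replicate 1, the library with high Skiv2l2, lay inside the WT range, so the groups overlapped. The log2 fold change was -1.28 ± 0.44 (SE, adjusted p = 0.13), a difference that did not pass the test. With the nuclei fitted alone the SE was 0.58 and the adjusted p was 0.62. Leaving out replicate 1 of these nuclei from the fit that includes the cytoplasms gave -1.90 (adjusted p = 0.0039), and 10.2% of all genes were then called. When the nuclei were fitted alone without that library, a fit added after the data were seen, the adjusted p was 0.23. The fall was smaller when another of these nuclei was left out, at -0.93 without replicate 2 and -1.01 without replicate 3. With array weights, which weight libraries by their scatter, it was -0.53.

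**Figure D2:**
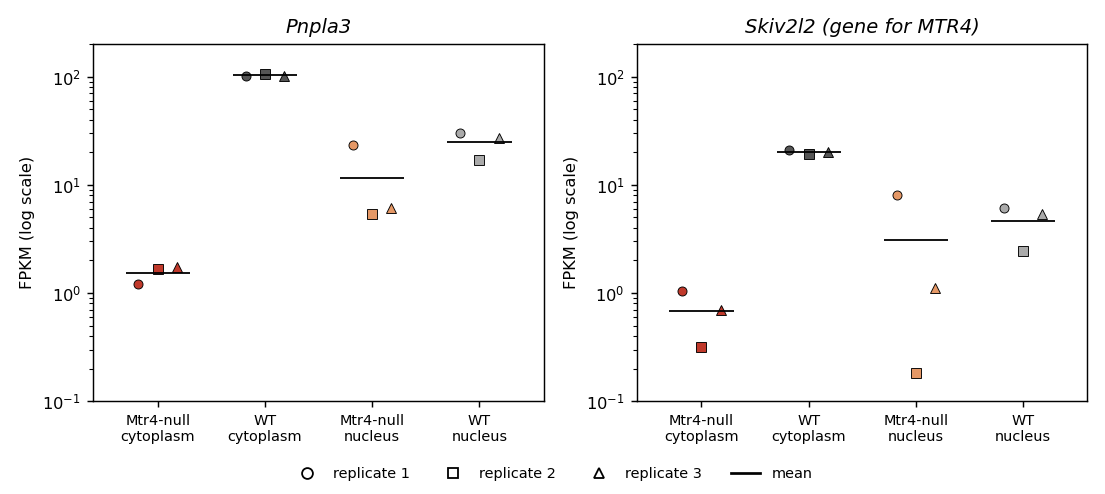
Levels of Pnpla3 and of Skiv2l2, the gene of MTR4, as FPKM on a log axis in each library of the 4 groups, Mtr4-null left of WT within cytoplasm and within nucleus. Among the nuclei labelled Mtr4-null, the library with 7.98 FPKM of Skiv2l2 is also the one with 23.3 FPKM of Pnpla3; the others had 5.33 and 6.12 FPKM of Pnpla3.

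By FPKM, the order of nucleus and cytoplasm for Pnpla3 was turned round between the labelled genotypes. Every nucleus labelled Mtr4-null (5.33 to 23.3 FPKM) lay above every Mtr4-null cytoplasm (1.22 to 1.73 FPKM), with a nucleus-to-cytoplasm ratio of means of 7.51, or 3.71 without replicate 1 of these nuclei. In WT oocytes every nucleus (16.8 to 30.1 FPKM) lay below every cytoplasm (101 to 106 FPKM), with a ratio of 0.239. On the log2 scale nucleus minus cytoplasm was 2.03 in the libraries labelled Mtr4-null (1.41 without that library) and -2.06 in WT, where the median of all genes was -0.82 and -0.90. The scaling moved these values, to 2.69 labelled Mtr4-null and -0.96 WT after median-of-ratios scaling and to 2.51 labelled Mtr4-null and -0.70 WT after quantile normalization. This turn rests on the cytoplasm values that chose the gene and was not tested. The same turn in every library was seen in 6 of 13157 entries (0.0456%), the others being Ccdc57, Cdkn2b, Dcpp2, Hist2h2bb and Pbld2, and in 19 (0.144%) without that library.

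PNPLA2, or adipose triglyceride lipase, takes the first fatty acid from a triglyceride. Pnpla2 RNA stood at 19.4, 18 and 15.4 FPKM in Mtr4-null cytoplasms, against 13.9, 10.7 and 12.2 FPKM in WT cytoplasms. In nuclei it stood at 5.1, 7.47 and 12.6 FPKM in the libraries labelled Mtr4-null, against 3.78, 2.02 and 4.12 FPKM in WT. Every Mtr4-null value was above every WT value of the same compartment, the reverse of Pnpla3 in cytoplasm. The ratio of means was 1.43 in cytoplasm and 2.53 in nuclei. The log2 fold changes, 0.49 ± 0.36 in cytoplasm (SE, adjusted p = 0.72) and 1.08 ± 0.36 in nuclei (SE, adjusted p = 0.12), did not pass the test. In nuclei the gene was called as higher once the library with high Skiv2l2 was left out (1.35, adjusted p = 0.032; 4.58% of all genes were then called higher), but not when the nuclei were fitted alone without it (adjusted p = 0.46).

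ABHD5 is the protein that activates PNPLA2, and LIPE, hormone-sensitive lipase, takes up the diglyceride that PNPLA2 leaves. Abhd5 had 11.3, 12.8 and 7.78 FPKM in Mtr4-null cytoplasms, against 10.8, 9.92 and 12.1 FPKM in WT cytoplasms, and the groups overlapped. Lipe had 8.06, 4.62 and 5.95 FPKM in Mtr4-null cytoplasms, against 4.34, 4.31 and 4.74 FPKM in WT cytoplasms, which also overlapped. In nuclei Lipe had 3.45, 2.85 and 4.23 FPKM in the libraries labelled Mtr4-null, against 1.79, 2.17 and 1.36 FPKM in WT nuclei. There every Mtr4-null value was above every WT value, with a log2 fold change of 0.70 ± 0.32 that did not pass the test (SE, adjusted p = 0.26; 0.70 and 0.23 without replicate 1). Abhd5 in nuclei averaged 5.45 ± 1.96 FPKM in the libraries labelled Mtr4-null and 4.72 ± 0.515 FPKM in WT (SD, n = 3 each). In the GRCm38 annotation an antisense gene overlaps each of them, 4732471J01Rik with Lipe and A730085K08Rik with Abhd5. Whether strand was used in counting is not given, so reads of such partners cannot be told apart; 4732471J01Rik stood at 2.5, 3.66 and 3.1 FPKM in Mtr4-null cytoplasms, against 2.2, 0.831 and 1.25 FPKM in WT cytoplasms. In nuclei, where Lipe did not overlap, it stood at 6.18, 0 and 6.4 FPKM in the libraries labelled Mtr4-null, against 1.99, 2.41 and 2.61 FPKM in WT. Pnpla3 overlaps Mir6392, Gm49513 and, on the other strand, the pseudogene Gm20369 in that annotation, none with an entry in the table.

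DGAT1 and DGAT2 are unrelated enzymes that both add the last fatty acid to a triglyceride. Dgat2 had 23, 21.9 and 22.2 FPKM in Mtr4-null cytoplasms, against 28.3, 30.1 and 30.7 FPKM in WT cytoplasms. Every Mtr4-null value was below every WT value, at a ratio of means of 0.754. The log2 fold change of -0.39 ± 0.31 (SE, adjusted p = 0.76) did not pass the test in the fit of all 12 libraries, whose spread includes the nuclei. In a fit of the 6 cytoplasms alone the SE was 0.08 and the adjusted p was 0.02, and Dgat2 was then the 1 member called of 7 (23.2% of all genes were called in that fit). In nuclei Dgat2 averaged 11.7 ± 4.1 FPKM in the libraries labelled Mtr4-null and 8.67 ± 1.93 FPKM in WT (SD, n = 3 each). Dgat1 was lower than Dgat2 in every cytoplasm, with 7.84, 4.33 and 5.46 FPKM in Mtr4-null cytoplasms, against 6.79, 5.47 and 7.54 FPKM in WT cytoplasms, which overlapped.

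PLIN2 and PLIN3 coat droplets; PLIN2 is stable only on the droplet, whereas PLIN3 also exists free in the cytosol. Plin3 had 27.2, 21.2 and 27.4 FPKM in Mtr4-null cytoplasms, against 18.6, 19.8 and 20.8 FPKM in WT cytoplasms. The groups did not overlap, and the log2 fold change was 0.33 ± 0.32 (SE, adjusted p = 0.84; 0.11 with the cytoplasms alone). Plin2 had 6.69, 6.07 and 8.33 FPKM in Mtr4-null cytoplasms, against 3.02, 6.21 and 4.83 FPKM in WT cytoplasms, which overlapped. Plin2 was near the floor in nuclei, with 1.18, 0 and 4.02 FPKM in the libraries labelled Mtr4-null, against 1.49, 0 and 0.521 FPKM in WT. Plin3 in nuclei overlapped between genotypes, at 12.7 to 25 FPKM in the libraries labelled Mtr4-null and 14.3 to 24.5 FPKM in WT.

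**Figure D3:**
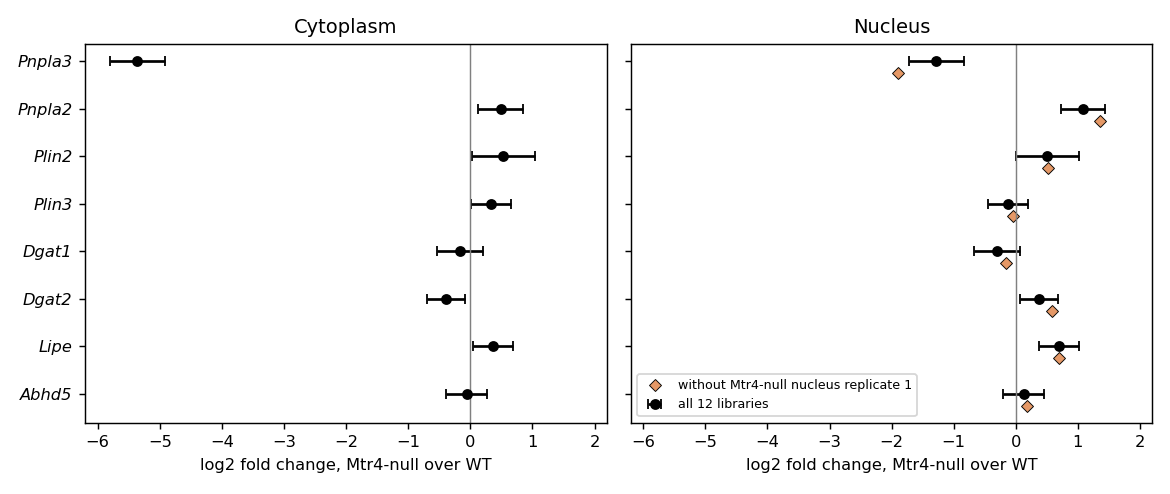
Log2 fold change of Mtr4-null over WT for each of the 8 genes in cytoplasm and in nucleus, from the fit of all 12 libraries, with bars of 1 standard error. In cytoplasm Pnpla3 lies at -5.36 (a description, since this value chose the gene) and the other 7 between -0.39 and 0.53. In nuclei all 8 lie between -1.28 and 1.08 in that fit. Diamonds in the nucleus panel give the fit without Mtr4-null nucleus replicate 1, with Pnpla3 at -1.90 and Pnpla2 at 1.35.

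Leaving Pnpla3 aside, 0 of 7 members passed the test in cytoplasm in the limma fit of all libraries, where 1.88% of all genes were called; 0 of 7 had an unadjusted p below 0.05, and the fit of the cytoplasms alone called 1. Their log2 fold changes had a median of 0.33, against 0.00 over all genes tested. The genotypes did not overlap for 3 of 7 (42.9%), Pnpla2 and Plin3 higher and Dgat2 lower, and 43.9% of all genes had groups that did not overlap, so that share is near the background. In nuclei 0 of 8 members were called in the same fit (2.26% of all genes), and the nuclei fitted alone called 0 (0.038% of all genes). An unadjusted p below 0.05 was held by 3 members in the first of these fits and by 1 in the second. The share of all genes below that threshold was not counted. Groups did not overlap for 2 of 8, Pnpla2 and Lipe, against 12.9% of all genes. The genotype effect was not called as different between nucleus and cytoplasm for any of the 7 (limma, adjusted p from 0.63 to 0.99; 0 with an unadjusted p below 0.05; 0.122% of all genes called).

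The summed level of the other 7 members differed little between genotypes in cytoplasm, while that of all 8 was 96.5 FPKM on average in Mtr4-null cytoplasm and 192 FPKM in WT cytoplasm. The 7 summed to 103, 88.9 and 92.6 FPKM in Mtr4-null cytoplasms, against 85.8, 86.5 and 92.9 FPKM in WT cytoplasms, and the ranges overlapped. Pnpla3 was 1.17% to 1.84% of the sum of all 8 in Mtr4-null cytoplasms and 52.3% to 55.2% in WT cytoplasms. In nuclei the share was 35.7%, 11.4% and 7.28% in the libraries labelled Mtr4-null, against 41.9%, 30.5% and 33.6% in WT. Replicate 1 of the nuclei labelled Mtr4-null was again the one inside the WT range.

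**Figure D4:**
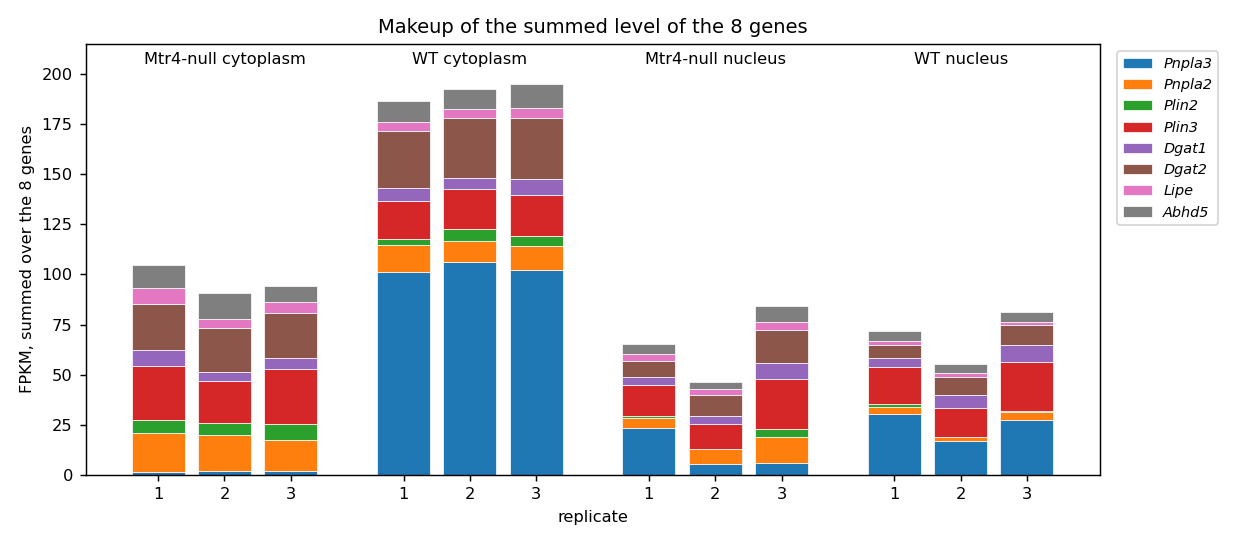
FPKM summed over the 8 genes in each library, as stacked bars from 0 with a colour per gene, for replicates 1 to 3 of Mtr4-null cytoplasm, WT cytoplasm, Mtr4-null nucleus and WT nucleus. Pnpla3 fills 52.3% to 55.2% of the WT cytoplasm bars and 1.17% to 1.84% of the Mtr4-null cytoplasm bars, and the rest of the bar, 88.9 to 103 FPKM in Mtr4-null and 85.8 to 92.9 FPKM in WT, is of similar height.

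FPKM is scaled by transcript length, so levels can be ordered across the 8 genes. In Mtr4-null cytoplasm the order by mean was Plin3 (25.3), Dgat2 (22.4), Pnpla2 (17.6), Abhd5 (10.7), Plin2 (7.03), Lipe (6.21), Dgat1 (5.88) and Pnpla3 (1.54 FPKM). Pnpla3 was the lowest in every library there, and 10796 table entries had a higher mean. Plin3 overlapped with Dgat2 there, and so did each neighbouring pair from Abhd5 down to Dgat1. In WT cytoplasm the order was Pnpla3 (103), Dgat2 (29.7), Plin3 (19.7), Pnpla2 (12.3), Abhd5 (10.9), Dgat1 (6.6), Plin2 (4.69) and Lipe (4.46 FPKM). Pnpla3 was above all 7 in every library, and only 737 entries of the table had a higher mean. Neighbours that overlapped in WT cytoplasm were Pnpla2 with Abhd5, Dgat1 with Plin2 and Plin2 with Lipe. In the nuclei labelled Mtr4-null, all neighbours overlapped, with Plin3, Dgat2 and Pnpla3 at the top (17.6, 11.7 and 11.6 FPKM). In WT nuclei Pnpla3 (24.7 FPKM) and Plin3 (19 FPKM) led and overlapped, and both were above the other 6 genes in every library. For each gene across groups, Pnpla3 and Dgat2 had their highest mean in WT cytoplasm and lay above the next group in every library. Pnpla2 and Plin3 had theirs in Mtr4-null cytoplasm, likewise above WT cytoplasm in every library.

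Most members were lower in the nucleus than in the cytoplasm of WT oocytes, as were most genes. Of the 7 members other than Pnpla3, 5 were called lower, against 45% of all genes: Pnpla2 (log2 -1.65 ± 0.36, SE), Plin2 (-1.83 ± 0.51), Dgat2 (-1.69 ± 0.31), Lipe (-0.99 ± 0.32) and Abhd5 (-1.06 ± 0.33), with adjusted p from 0.001 to 0.018. The median of all genes was itself -0.90, and relative to it these 5 lay at -0.76, -0.93, -0.79, -0.09 and -0.16. Plin3 and Dgat1 were at -0.08 and -0.05, or 0.82 and 0.85 relative to the median. After median-of-ratios scaling, which brings the median of all genes to 0.00, the members called were instead Plin3 (0.99, adjusted p = 0.0011) and Dgat1 (0.92, adjusted p = 0.026), both higher in the nucleus (19.3% of all genes were then called higher and 9.86% lower), and none of the 5 was called. After quantile normalization Pnpla2 and Plin2 were called lower (12.2% of all genes) and Plin3 higher (12.6%), with Dgat1 at 0.58. In the libraries labelled Mtr4-null nucleus minus cytoplasm was -1.06 for Pnpla2, -1.85 for Plin2, -0.92 for Dgat2, -0.66 for Lipe and -0.87 for Abhd5, each without overlap, and Plin3 and Dgat1 overlapped. Without nucleus replicate 1 these 5 values were -0.79, -1.83, -0.72, -0.66 and -0.83, still without overlap. The share of all genes without overlap was not counted for the libraries labelled Mtr4-null. In WT 59.4% of all genes were lower in the nucleus without overlap, so such separation is common.

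Genes of lipid metabolism beyond the 8 were read from 8 lists holding 133 genes, all in the table, of which 102 passed the filter. In cytoplasm none of the 102 was called in the fit of all libraries (1.88% of all genes), and their median log2 fold change was -0.02, against 0.00 over all genes. In the fit of the cytoplasms alone 16 were higher and 15 lower (30.4% of the 102, against 23.2% of all genes). In that fit the counts of higher and lower genes were 2 and 1 of 17 droplet proteins, 4 and 4 of 16 for triglyceride synthesis, 0 and 1 of 9 other lipases, 3 and 3 of 15 for lipogenesis, 0 and 3 of 9 for sterols, 4 and 3 of 21 for fatty acid oxidation and 3 and 0 of 10 for fatty acid uptake. The 5 further patatin-like genes had no call, with a median of -0.16.

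**Figure D5:**
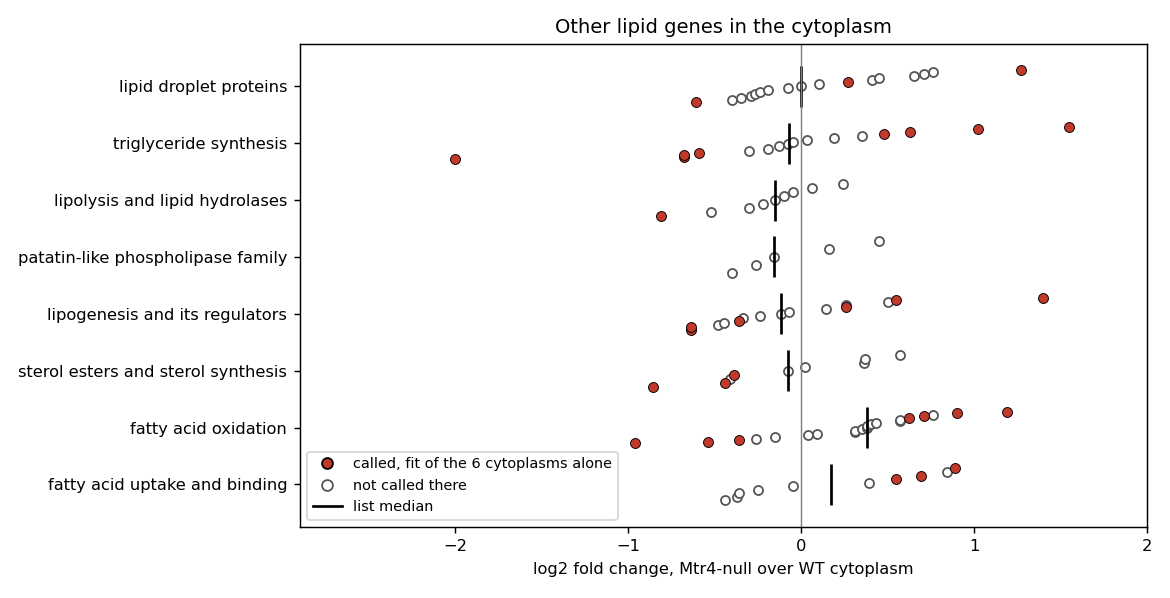
Log2 fold change of Mtr4-null over WT cytoplasm for each tested gene of the 8 lists of lipid genes, a row per list, with the list's median and marks for genes called in the fit of the cytoplasms alone. The list medians lie between -0.16 (patatin-like family) and 0.38 (fatty acid oxidation).

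Among the named genes of these lists, Bscl2, the seipin of droplet assembly, had 195, 208 and 203 FPKM in Mtr4-null cytoplasms, against 167, 167 and 166 FPKM in WT cytoplasms (log2 0.27, adjusted p = 0.04 with the cytoplasms alone). Insig1, which holds SREBP in the endoplasmic reticulum, had 241, 193 and 225 FPKM in Mtr4-null cytoplasms, against 354, 332 and 337 FPKM in WT cytoplasms (log2 -0.64, adjusted p = 0.013 in that fit). Every Mtr4-null value was above WT for Bscl2 and below WT for Insig1. The sterol synthesis gene Fdft1 (log2 -0.39, adjusted p = 0.028) and the NADPH-making Me1 (-0.36, 0.038) were lower in that fit. Dbi, which binds acyl-CoA, was higher, with 35.5, 43.8 and 34.9 FPKM in Mtr4-null cytoplasms, against 24.1, 24.8 and 27.7 FPKM in WT cytoplasms (0.55, adjusted p = 0.024). Arf1, Lpin2, Agpat1, Nceh1, Abhd12, Pnpla6, Pnpla8, Etfa, Echs1 and Fabp5, also named, had log2 fold changes between -0.52 and 0.45 and were called in neither fit.

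Larger differences, picked after their values were seen, were those of Agpat9, an acyltransferase at the start of triglyceride synthesis, and of Acss2, which makes acetyl-CoA from acetate. Agpat9 had 9.12, 5.18 and 4.71 FPKM in Mtr4-null cytoplasms, against 16.9, 36.9 and 32.9 FPKM in WT cytoplasms (a ratio of means of 0.219, adjusted p = 0.014 with the cytoplasms alone). Acss2 had 1.65, 3.3 and 2.73 FPKM in Mtr4-null cytoplasms, against 0.332, 0.266 and 0.372 FPKM in WT cytoplasms (log2 1.40, adjusted p = 0.0064). Neither overlapped, and neither was called in the fit of all libraries. In nuclei 4 of the 102 list genes were called in that fit (3.92%, against 2.26% of all genes), each lower: Agpat4, Aadac, Pnpla1 and Fabp3. None of the 102 was called with the nuclei fitted alone (adjusted p of 0.46 to 0.47 for these 4). Without the nucleus with high Skiv2l2, 5 of the 102 were called (4.9%, against 10.2% of all genes). All 5 were lower, and 5.65% of all genes were called lower there. Fabp3 was lost (adjusted p = 0.051), and Acsl6 (0.0055) and Agpat9 (0.022) were added. Pnpla1, a patatin-like gene known for its role in the skin barrier, had 5.56, 1.45 and 2.73 FPKM in the nuclei labelled Mtr4-null, against 14.7, 9.73 and 12.3 FPKM in WT nuclei (log2 -1.74 ± 0.38, SE, adjusted p = 0.027; 0.46 with the nuclei alone, and -2.12 with 0.0024 without replicate 1). Its cytoplasmic values were 0.937, 0.719 and 0.406 FPKM in Mtr4-null, against 0.832, 1.38 and 1.44 FPKM in WT.

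The genes beside Pnpla3 on chromosome 15 did not share its size of difference. On one side the order away from Pnpla3 is Pnpla5, Sult4a1 and Efcab6, and on the other Samm50, Parvb and Parvg. Samm50, of the mitochondrial outer membrane, had 16.8, 18.9 and 13.2 FPKM in Mtr4-null cytoplasms, against 21.8, 14.1 and 19.2 FPKM in WT cytoplasms, and its log2 fold change was -0.16. Pnpla5 had 2.56, 1.69 and 1.97 FPKM in Mtr4-null cytoplasms, against 2.44, 1.5 and 3.63 FPKM in WT cytoplasms (log2 -0.16). Both overlapped between genotypes. Sult4a1 had 2.79, 0.514 and 1.74 FPKM in Mtr4-null cytoplasms, against 4.4, 4.99 and 4.68 FPKM in WT cytoplasms, lower without overlap (log2 -1.18 ± 0.45, SE, adjusted p = 0.25, or 0.052 with the cytoplasms alone). Efcab6 went the other way, at 54.4, 57.5 and 62.4 FPKM in Mtr4-null cytoplasms, against 47.5, 41.6 and 43.8 FPKM in WT cytoplasms (0.38 ± 0.37, adjusted p = 0.85; 0.031 with the cytoplasms alone). Parvb and Parvg were under the filter.

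Across the 12 libraries, which share genotype and compartment, the entries most like Pnpla3 in log2 level among 9607 with a mean of at least 5 FPKM in some group were Hist2h2bb (Pearson's r = 0.966), Asb4 (0.953), A430084P05Rik (0.953), Dcpp1 (0.953) and Pknox2 (0.95). Each had its highest mean in WT cytoplasm and its lowest in Mtr4-null cytoplasm. Asb4 had 0.294, 0.59 and 0.564 FPKM in Mtr4-null cytoplasms, against 6.7, 5.77 and 7.5 FPKM in WT cytoplasms. Hist2h2bb was the most abundant, with 56.6, 70.2 and 44.7 FPKM in Mtr4-null cytoplasms, against 2369, 1413 and 1465 FPKM in WT cytoplasms. In all 5 the highest of the nuclei labelled Mtr4-null was replicate 1, as for Pnpla3. The 5 were picked by correlation with Pnpla3 over these same libraries. Their likeness to it, in group order and in that replicate, therefore follows in part from the choice. Against the other 7 lipid droplet genes, r of Pnpla3 lay between -0.351 (Lipe) and 0.15 (Dgat1).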

How the data were processed

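The deposited values are FPKM, fragments scaled by transcript length and by the mapped fragments of the library. The submitters' processing notes name TopHat2 2.1.1, Cufflinks 2.2.1 and the mouse build mm9, without their roles; neither annotation nor strand setting is stated in the sources used here. Columns were matched to samples by title. Values were taken as log2(FPKM + 1). A gene was tested if 3 or more libraries had at least 1 FPKM. A limma 3.58.1 fit (R 4.3.3) of all 12 libraries had a mean per group and a variance trend; p-values are two-sided, adjusted by Benjamini and Hochberg over 13157 genes, and called below 0.05. The groups of a comparison were also fitted alone. Values after ± are SDs for FPKM and standard errors for log2 fold changes. The fit was tested on simulated data.

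The members and lists were chosen with earlier results of these data known. Named genes are the members, Skiv2l2, per list the 2 called in cytoplasm with the largest change in the fit of all libraries or, where none is called, the 2 of highest level, 3 table genes on each side of Pnpla3, and the 5 of highest correlation with it; 1 list gene that this rule names is not reported here. Gene order and promoters are RefSeq's (GRCm38.p6); promoters matched 6 of the 8 members.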

Additional observations from a re-analysis of the deposited data

Results flagged for a closer look

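Pnpla3 ran in opposite directions between compartments in the labelled genotypes. Nucleus minus cytoplasm was 2.03 on the log2 scale in the libraries labelled Mtr4-null, or 1.41 without nucleus replicate 1, whose Skiv2l2 goes against its label, and -2.06 in WT oocytes. Every nucleus labelled Mtr4-null lay above every Mtr4-null cytoplasm and every WT nucleus below every WT cytoplasm. After median-of-ratios scaling the values were 2.69 labelled Mtr4-null and -0.96 WT, and after quantile normalization 2.51 labelled Mtr4-null and -0.70 WT. The difference was not tested, since the cytoplasm values chose the gene.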

How the results depend on the processing

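In cytoplasm the count of members called, other than Pnpla3, was 0 with all libraries, 1 with the cytoplasms alone (0 to 2 on leaving out single libraries there, a check added after the data were seen) and 4 with array weights (Pnpla2, Plin3, Dgat2 and Lipe; 36.5% of all genes called); leaving out single libraries from the full fit gave 0 to 0. In nuclei, Pnpla3 included, it was 0 (2.26% of all genes called). It was 1 (Pnpla2) after median-of-ratios scaling (9.59% of all genes called) and after quantile normalization (8.66%). Leaving out replicate 1 of the nuclei labelled Mtr4-null, in the fit that includes the cytoplasms, gave 2, Pnpla3 and Pnpla2 (10.2% of all genes called). The range over single libraries was 0 to 2. Leaving out replicate 3 as well, the nucleus with oocyte markers at the level of cytoplasms, left 1 library in that group, so no count is given. The log2 fold change of Pnpla3 was then -1.98. In WT nucleus against cytoplasm the count of members called was 5, with 2 after median-of-ratios scaling and 3 after quantile normalization. Over single libraries it was 3 to 5, lowest without WT cytoplasm replicate 3. For the difference between compartments it was 0 to 0 over single libraries. The cause of these moves was not tested.

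Signs turned in nuclei for Plin2 (-0.64) and Abhd5 (-0.24) when both of those nuclei were left out, for Abhd5 (-0.01) after median-of-ratios scaling, and for Skiv2l2 (0.09) with array weights. They turned in WT nucleus against cytoplasm for Plin3 (0.99 and 1.06) and Dgat1 (0.92 and 0.58) after median-of-ratios scaling and quantile normalization. In the difference between compartments they turned for Plin2 at a pseudocount of 0.1 (0.18) and after quantile normalization (0.40), and for Abhd5 without both nuclei (-0.18). Over single libraries left out, signs turned in cytoplasm for Dgat1 (-0.36 to 0.00), Abhd5 (-0.19 to 0.13, with 0.01 without WT cytoplasm replicate 3) and Nceh1 (-0.01 to 0.1), in nuclei for Plin2 (-0.08 to 1.08), Plin3 (-0.4 to 0.07) and Abhd5 (-0.1 to 0.32), in WT nucleus against cytoplasm for Plin3 (-0.27 to 0.10) and Dgat1 (-0.22 to 0.14), and in the difference for Plin2 (-0.61 to 0.56), Dgat1 (-0.46 to 0.06) and Abhd5 (-0.04 to 0.38). None of these was called in the main fit. Pnpla3 in cytoplasm stayed between -5.42 and -5.27 over single libraries left out, and was -5.99 at a pseudocount of 0.1, -5.10 after median-of-ratios scaling and -4.80 after quantile normalization. In nuclei Pnpla3 moved more, between -1.90 and -0.93 over single libraries left out, and was -0.53 with array weights.

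With the replicate number as a block, 0 members were called in cytoplasm, 0 in nuclei, 5 in WT nucleus against cytoplasm and 0 for the difference, so the block changed no call. Same-numbered libraries correlated between -0.154 and 0.303, over 0.1 in 3 of 12 pairs, and the own number was the best match in 4 of 12, so the numbers were not taken to pair libraries. Unknown depth, lower in nuclei, limits low nuclear values.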
